A study of Mus musculus with 18 samples.

Results

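Interferon response and antigen presentation genes were followed in mouse heart: 42 listed genes for interferon-inducible GTPases, antigen processing, MHC class I, interferon-responsive transcription factors, antiviral proteins and chemokines. Each gene was read from the probe set with the highest mean among those that the platform annotation gives to that gene alone. This gave values for 39 of the 42 genes, all of them above the filter on low values, among 18193 genes of the series with a probe set of their own, of which 12616 passed the filter. Tgtp1, Psme2 and Isg15 are on the array only through probe sets annotated to several genes, so they have no value here.

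The series asked what deletion of the gene for serum response factor (SRF, which drives transcription of muscle and growth-induced genes) does in adult heart, with and without phenylephrine (PE), which activates alpha-1 adrenergic receptors and drives cardiac hypertrophy. RNA came from the cardiac ventricles of male mice aged 10 weeks, with the strain given as CR7BL6, 1 heart per array. Control mice were littermates carrying SRF-flex2neo and SRFHKO mice were the mutants. Both received 0.7 mg of tamoxifen for 3 days, so tamoxifen exposure is shared by every group. The groups were control (2 arrays) and SRFHKO (4) at day 8 after tamoxifen, and control, SRFHKO, control with PE and SRFHKO with PE at day 25 (3 each). PE was delivered at 80 mg/kg/day by minipump from day 10 to day 25. The sources used here do not name the driver of the recombinase or the cells it acts in. The titles call the replicates biological.

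Interferons are secreted cytokines that signal through paired receptors, Janus kinases and STAT proteins. Type II interferon (interferon gamma) acts on GAS elements of promoters and induces IRF1, the immunity-related GTPases, guanylate-binding proteins and the machinery that cuts peptides, carries them into the endoplasmic reticulum and loads them on MHC class I. Type I interferons act on ISRE elements, through factors that include STAT2 and IRF9, and induce the IFIT, OAS and other antiviral genes. The gene sets overlap, and in the heart endothelial cells, macrophages and fibroblasts as well as cardiomyocytes can respond. In whole ventricle, fewer cells of a type and less RNA per cell cannot be told apart.

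The promoter sequences show the elements through which these genes are known to respond. RefSeq windows on GRCm38.p6 were searched over the 250 bases before the start on both strands, counting overlapping matches, and 35 of the 42 genes had a window (not Iigp1, Tap2, Nlrc5, Usp18, Rtp4, Dhx58 or Parp14). The ISRE core GAAANNGAAA was present in 15 of 35 genes (42.9%), against 3.46% of the 27025 genes with a window. The GAS pattern TTCNNNGAA was present in 9 of 35 (25.7%), against 8.13%. The CArG box, the motif bound by SRF, was present in 0 of 35, against 1.62%. By role, the ISRE core was in 6 of 7 GTPases, 6 of 11 antiviral genes and 0 of 7 antigen processing genes. A match describes the letters in the window and not a bound site. The stretches below are from the 4 genes with an ISRE core among those lower in SRFHKO hearts at day 25 and from 3 antiviral genes that varied most from heart to heart or had overlapping matches, with the GAS match of Irf1. Each has up to 25 bases on either side of the match, ends at the start of transcription at the latest, and is written 5′ to 3′ on the strand of the gene with the match in capitals.
Igtp, chr11:58199497-58199555, plus strand: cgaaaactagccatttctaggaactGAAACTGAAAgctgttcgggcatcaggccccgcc
Irgm2, chr11:58214888-58214947, plus strand: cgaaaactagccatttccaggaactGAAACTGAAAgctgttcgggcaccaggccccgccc
Gbp2, chr3:142620579-142620638, plus strand: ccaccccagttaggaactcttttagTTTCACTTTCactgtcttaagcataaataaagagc
B2m, chr2:122147523-122147582, plus strand: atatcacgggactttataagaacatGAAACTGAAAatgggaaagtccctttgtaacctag
Irf1, TTCNNNGAA, chr11:53769899-53769957, plus strand: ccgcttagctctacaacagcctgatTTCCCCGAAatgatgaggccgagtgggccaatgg
Ifit1, chr19:34640760-34640838, plus strand: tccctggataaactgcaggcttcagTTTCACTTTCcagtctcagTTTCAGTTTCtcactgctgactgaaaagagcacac
Ifit3, chr19:34583348-34583441, plus strand: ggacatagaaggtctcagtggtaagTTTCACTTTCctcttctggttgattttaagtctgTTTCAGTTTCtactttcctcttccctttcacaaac
Oas1a, chr5:120907526-120907570, minus strand: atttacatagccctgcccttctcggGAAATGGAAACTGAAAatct

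Igtp and Irgm2 are next to each other among protein-coding genes of chromosome 11, and 57 of 59 compared bases of their stretches were identical (96.6%). Ifit1 and Ifit3 each held 2 separate ISRE cores, and Oas1a held 2 that overlap. Psmb9, Tap1, Psmb8 and Tap2 are consecutive genes, and the starts of Psmb9 and Tap1 lie 225 bases apart, so the stretches searched share 225 bases. Of the 12 genes that were lower at day 25 (below), 4 had an ISRE core and 4 had the GAS pattern. Among the other 23 genes with a window the counts were 11 and 5. Those 23 include Tgtp1 (both patterns), Isg15 (ISRE core) and Psme2 (neither), which have no value here and so could not be called.

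Levels below are log2(scaled signal + 2), where the scaled signal is the array's intensity brought to a common trimmed mean, and a difference is SRFHKO minus control with its standard error unless stated. A difference passed where its p, from 1 limma model over all 18 arrays with Benjamini-Hochberg adjustment over the 12616 genes, was under 0.05. Levels of different genes are not compared, since each probe set has its own response. The trimmed mean before scaling ran from 46.6 to 148. At day 25 without PE it was lower in control (46.6 to 68.5) than in SRFHKO arrays (71.2 to 83.5). The same held with PE (52.5 to 75.3 against 75.9 to 85.4). Day 8 arrays were brighter than every day 25 array (125 to 138 in control, 110 to 148 in SRFHKO). Arrays correlated with each other at 0.912 to 0.955, and 0 pairs were identical. At day 25 without PE the brighter Srf probe set ranged over 7.37 to 7.66 (control) and 7.16 to 7.63 (SRFHKO), and the dimmer over 5.97 to 6.12 and 5.02 to 5.85. Whether either reads the deleted part of the gene is not known, so the genotype labels were not checked by them.

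**Figure D1:**
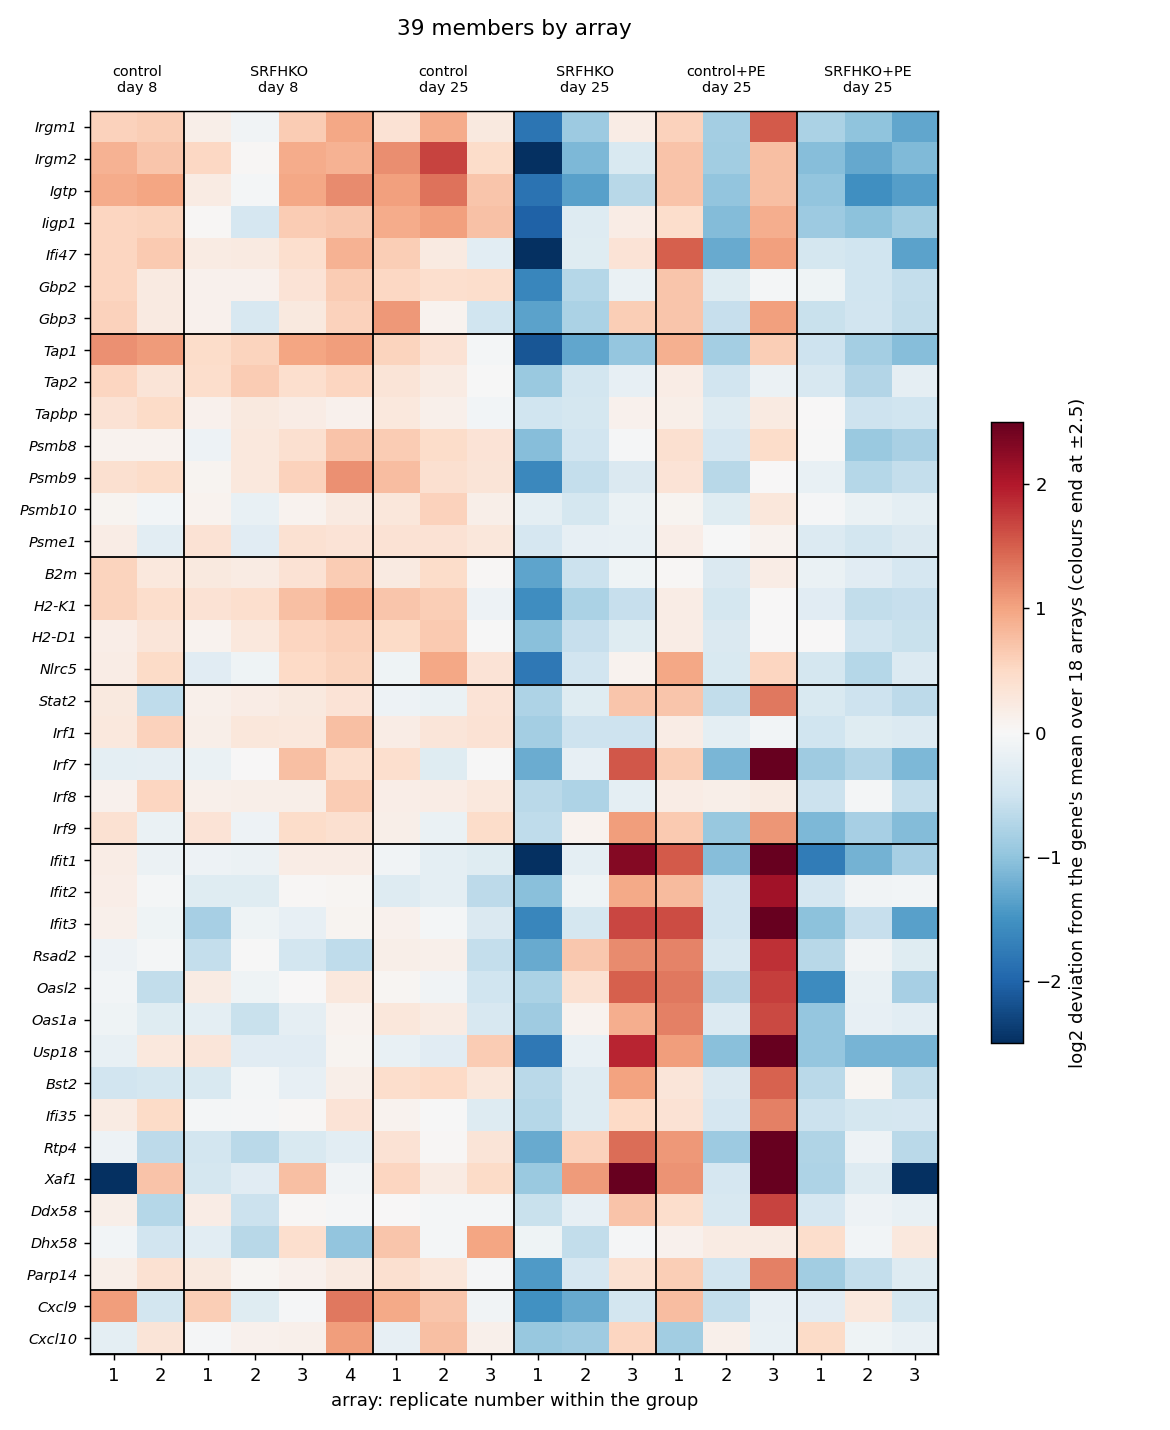
Each row is 1 of the 39 genes and each column 1 of the 18 arrays; colour gives the log2 deviation from the gene's mean over all arrays, with horizontal lines between roles (GTPases, antigen processing, MHC class I, transcription factors, antiviral genes, chemokines). Replicate 1 of SRFHKO at day 25 was the lowest of the 18 arrays for 28 of 39 genes, and replicate 3 of control with PE was the highest for 16.

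At day 25 without PE, 12 genes of antigen presentation, the interferon-inducible GTPases and their regulators were lower in SRFHKO than in control ventricles, and none of the antiviral genes passed the test. Of the 39 genes, 12 were lower and 0 higher (30.8%). Of all genes tested 2.48% passed, made up of 1.2% lower and 1.28% higher. With arrays scaled to 1 median the median of all genes moved from -0.05 to 0.17 and the split of their calls from 161 higher and 152 lower to 808 and 53, with 8 of the 39 genes lower and 0 higher. The difference was below 0 for 31 of 39, with a median of -0.70 against -0.05 over all genes tested, and the groups did not overlap, with SRFHKO lower, for 17 of 39 (12.6% of all genes tested). By role the count was 3 of 7 GTPases, 4 of 7 antigen processing genes, 3 of 4 MHC class I genes, 2 of 5 transcription factors, 0 of 14 antiviral genes and 0 of 2 chemokines. The genes share their hearts and much of their regulation, so these counts are not independent observations.

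Irgm2 and Igtp encode immunity-related GTPases, and their falls were among the 5 largest of all genes that passed. Irgm2 lay at 9.98, 10.52 and 9.28 in control and at 5.98, 7.69 and 8.44 in SRFHKO hearts. The highest SRFHKO heart was below the lowest control, and the 3 SRFHKO hearts were spread more widely than the controls. The difference was -2.56 ± 0.48, a 5.88-fold lower level (limma adjusted p = 0.0102). Igtp lay at 10.62, 10.95 and 10.29 in control and at 7.74, 8.24 and 8.90 in SRFHKO hearts, again with no overlap. It fell by 2.32 ± 0.39, or 5.01-fold (limma adjusted p = 0.00601). Gbp2, a guanylate-binding protein, lay at 8.78, 8.68 and 8.70 in control and at 6.64, 7.55 and 8.09 in SRFHKO hearts. It fell by 1.30 ± 0.28, or 2.46-fold (limma adjusted p = 0.0218).

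The other 4 GTPases also had differences below 0 and did not pass. Iigp1 lay at 11.95, 12.05 and 11.76 in control and at 9.01, 10.69 and 11.22 in SRFHKO hearts. Its groups did not overlap, and the difference was -1.62 ± 0.46 (limma adjusted p = 0.071). Irgm1 differed by -1.36 ± 0.48, Ifi47 by -1.02 ± 0.61 and Gbp3 by -0.73 ± 0.45. Of these 3, the groups overlapped for Ifi47 and Gbp3.

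Antigen processing covers the TAP transporter, which carries peptides into the endoplasmic reticulum, its partner tapasin, the inducible subunits of the immunoproteasome and the proteasome activator PA28. All 7 measured genes differed below 0 with a median of -0.70, and for 6 of them the groups did not overlap. Tap1 lay at 7.46, 7.26 and 6.85 in control and at 4.77, 5.60 and 5.94 in SRFHKO hearts, a fall of 1.76 ± 0.35 or 3.38-fold (limma adjusted p = 0.0148). Psmb9, an immunoproteasome subunit, lay at 7.79, 7.41 and 7.34 in control and at 5.41, 6.41 and 6.66 in SRFHKO hearts. Every SRFHKO heart was below every control for both genes. Psmb9 fell by 1.35 ± 0.31, or 2.56-fold (limma adjusted p = 0.0283).

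The other immunoproteasome subunits and PA28 alpha moved by less. Psmb10 lay at 8.78, 9.07 and 8.62 in control and at 8.23, 8.04 and 8.31 in SRFHKO hearts, and it fell by 0.63 ± 0.15 (limma adjusted p = 0.031). Psme1, PA28 alpha, lay at 10.71, 10.71 and 10.64 in control and at 9.92, 10.14 and 10.16 in SRFHKO hearts, and it fell by 0.61 ± 0.15 (limma adjusted p = 0.034). Neither gene's groups overlapped, and control hearts lay close together for Psme1. Psmb8 (-1.01 ± 0.28, limma adjusted p = 0.0609) and Tap2 (-0.70 ± 0.19, limma adjusted p = 0.0593) did not overlap either and did not pass. Tapbp, tapasin, differed by -0.38 ± 0.17. The 8 constitutive proteasome subunits measured beside them had a median difference of 0.00, with 0 passing.

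MHC class I molecules present the peptides at the cell surface as a heavy chain paired with beta-2 microglobulin. H2-K1, a heavy chain, lay at 12.04, 11.97 and 11.23 in control and at 9.79, 10.55 and 10.76 in SRFHKO hearts. H2-D1, the other classical heavy chain measured, lay at 11.52, 11.69 and 11.04 in control and at 10.00, 10.46 and 10.74 in SRFHKO hearts. For both, control replicate 3 was the lowest control and SRFHKO replicate 3 the highest mutant, and the groups did not overlap. H2-K1 fell by 1.38 ± 0.24, or 2.60-fold (limma adjusted p = 0.00619), and H2-D1 by 1.02 ± 0.20, or 2.02-fold (limma adjusted p = 0.0151). Both probe sets are of a kind that can also bind related transcripts, so part of the signal may come from other class I genes. The 4 probe sets given to H2-K1 alone, all of this same kind, differed by -1.55 to -0.97. Each passed when adjusted over all 27022 probe sets. A more specific probe set of H2-D1 gave -0.92 ± 0.28 (limma adjusted p = 0.0888 over all probe sets).

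B2m, beta-2 microglobulin, lay at 12.21, 12.45 and 12.02 in control and at 10.68, 11.47 and 11.90 in SRFHKO hearts. It fell by 0.88 ± 0.22, or 1.84-fold (limma adjusted p = 0.0381), with SRFHKO replicate 3 just below the lowest control. Nlrc5, the transactivator of class I genes and chosen after its values were seen, lay at 6.26, 7.33 and 6.70 against 4.59, 5.90 and 6.46. Its groups overlapped and its difference was -1.11 ± 0.40 (limma adjusted p = 0.144).

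Among the transcription factors, Irf1, which interferon gamma induces and which drives Tap1 and Psmb9, showed the tightest separation. It lay at 8.15, 8.28 and 8.33 in control and at 7.11, 7.44 and 7.46 in SRFHKO hearts. The fall was 0.92 ± 0.16, or 1.89-fold (limma adjusted p = 0.00619), and the spread within each group was small beside it. Irf8, a factor of myeloid cells, lay at 5.97, 5.99 and 6.07 in control and at 5.13, 5.03 and 5.55 in SRFHKO hearts, a fall of 0.77 ± 0.20 (limma adjusted p = 0.0467). Stat2 (-0.15 ± 0.39), Irf9 (0.01 ± 0.41) and Irf7 (-0.01 ± 0.66), which belong to the type I arm, had differences near 0 with wide errors, and the median of the 5 factors was -0.15 (0.07 with arrays scaled to 1 median).

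**Figure D2:**
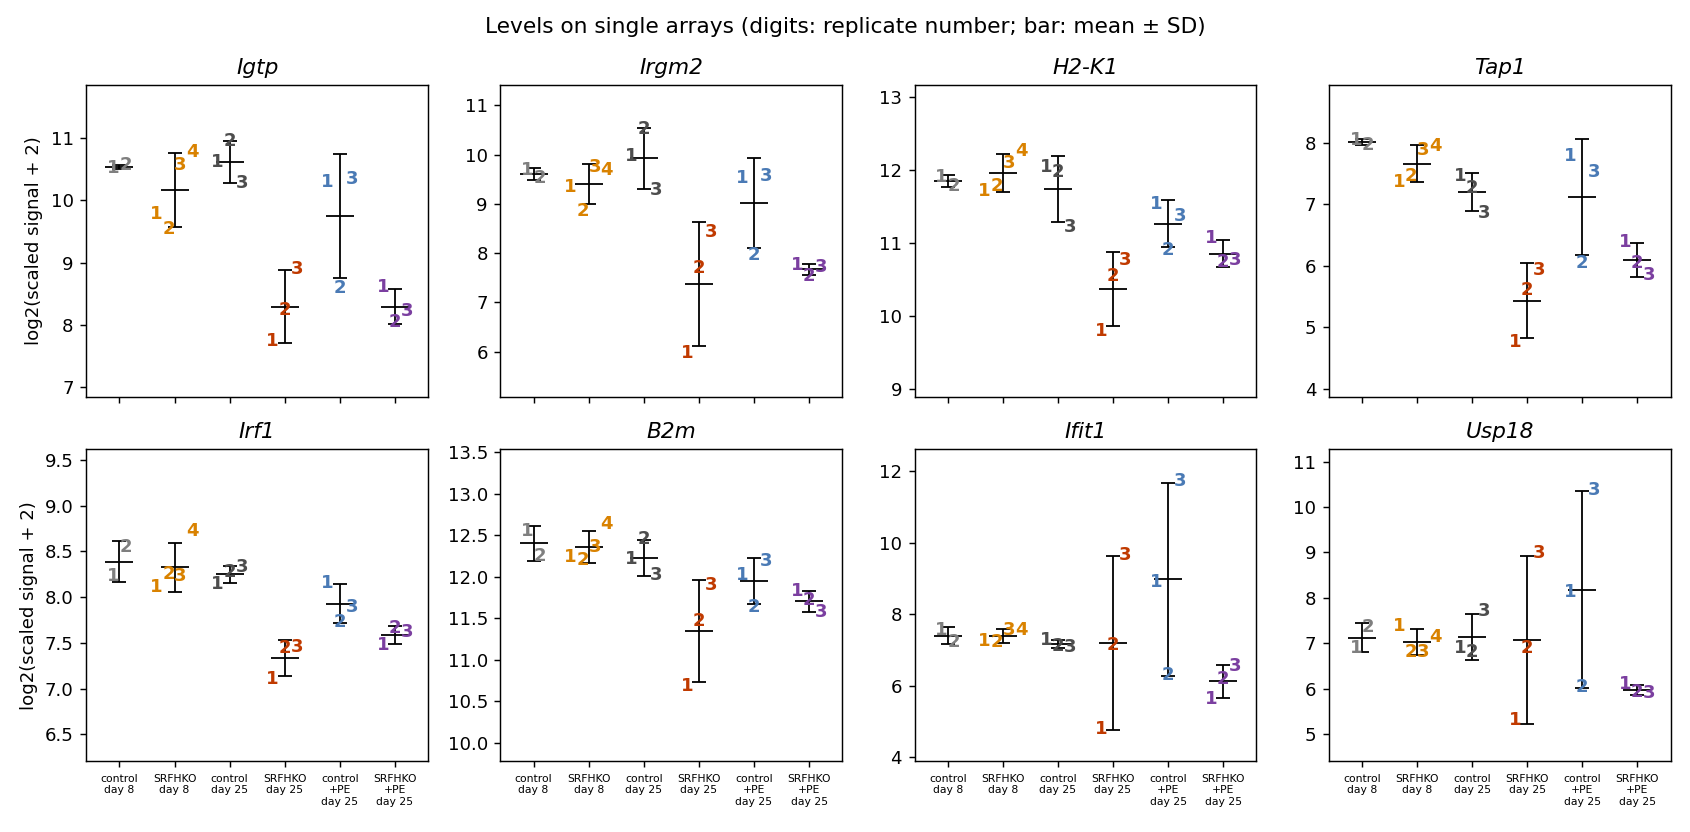
Levels of 8 genes on each array, as log2(scaled signal + 2), by group; digits are replicate numbers and bars the mean and SD. For Igtp, Irgm2, H2-K1, Tap1, Irf1 and B2m the 3 SRFHKO arrays at day 25 lay below the 3 controls, while Ifit1 and Usp18 spread over the controls' range and beyond on both sides.

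The calls at day 25 depended on the fit. With the compared groups alone 4 of the 12 passed (Igtp, Irf1, Psme1 and Tap1), where 0.412% of all genes tested passed. With array brightness as a covariate, which differs between the genotypes, 0 of the 39 passed, against 0.325% of all genes tested. With this covariate 14 had an unadjusted p under 0.05, all lower, against 12.7% of all genes tested (7.04% lower). All 12 kept their direction in both fits. The median of the antiviral genes was 0.71 with this covariate and that of the transcription factors 0.56. Leaving out 1 array of either group at a time left 5 (without control replicate 1) to 9 (without SRFHKO replicate 3), with 6, 7, 7 and 6 without control replicates 2 and 3 and SRFHKO replicates 1 and 2. The share of all genes tested that passed ran from 0.515% (without SRFHKO replicate 3) to 3.27% (without SRFHKO replicate 1). H2-K1, Igtp, Irf1 and Irgm2 passed in all 6 of these fits, and Irf8 and Psme1 in none.

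The 14 antiviral genes gave a different picture at day 25 without PE. Of them 0 passed (2.48% of all genes tested), and the smallest limma adjusted p was 0.296. An unadjusted p under 0.05 was found for 0 of 14, against 18.4% of all genes tested (10.2% lower). It was found for 19 of all 39 genes, all lower. Of the 14, 7 differed above 0 and 7 below, with a median of 0.00 (0.22 with arrays scaled to 1 median). The even split rests on SRFHKO replicates 1 and 3: without replicate 3 all 14 were below 0 (median -0.51), as were all 39 genes, and without replicate 1, 11 of 14 were above 0 (median 0.73). In each of these fits 0 of 14 passed. Within the SRFHKO group, replicate 3 was the highest of the 3 hearts for 14 of 14 and replicate 1 the lowest for 13 of 14. Ifit1, an RNA-binding antiviral protein and named here after its values were seen, lay at 7.29, 7.13 and 7.07 in control and at 4.80, 7.13 and 9.67 in SRFHKO hearts. The mutants thus spanned 29.2-fold where the controls spanned 1.16-fold. Usp18, an enzyme that removes ISG15 and damps type I signalling, was chosen in the same way and lay at 6.90, 6.80 and 7.72 against 5.30, 6.90 and 8.99. Ifi35, the antiviral gene with the highest mean, lay at 9.27, 9.18 and 8.88 against 8.48, 8.86 and 9.68, and differed by -0.10 ± 0.30 (limma adjusted p = 0.89).

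Heart-to-heart spread was a property of many of these genes. The median SD within groups was 0.56 over the 39 genes and 0.25 over all genes tested, and 15 of 39 lay above the 90th percentile of all genes (0.65). Ifit1 had the widest spread (SD 1.50), followed by Xaf1 (1.46), Usp18 (1.19) and Ifit3 (1.11). For Xaf1 part of it lay at day 8, where the 2 controls were at 4.07 and 8.45. In the 3 day 25 controls without PE, Ifit1 had an SD of 0.11 and Usp18 of 0.50.

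**Figure D3:**
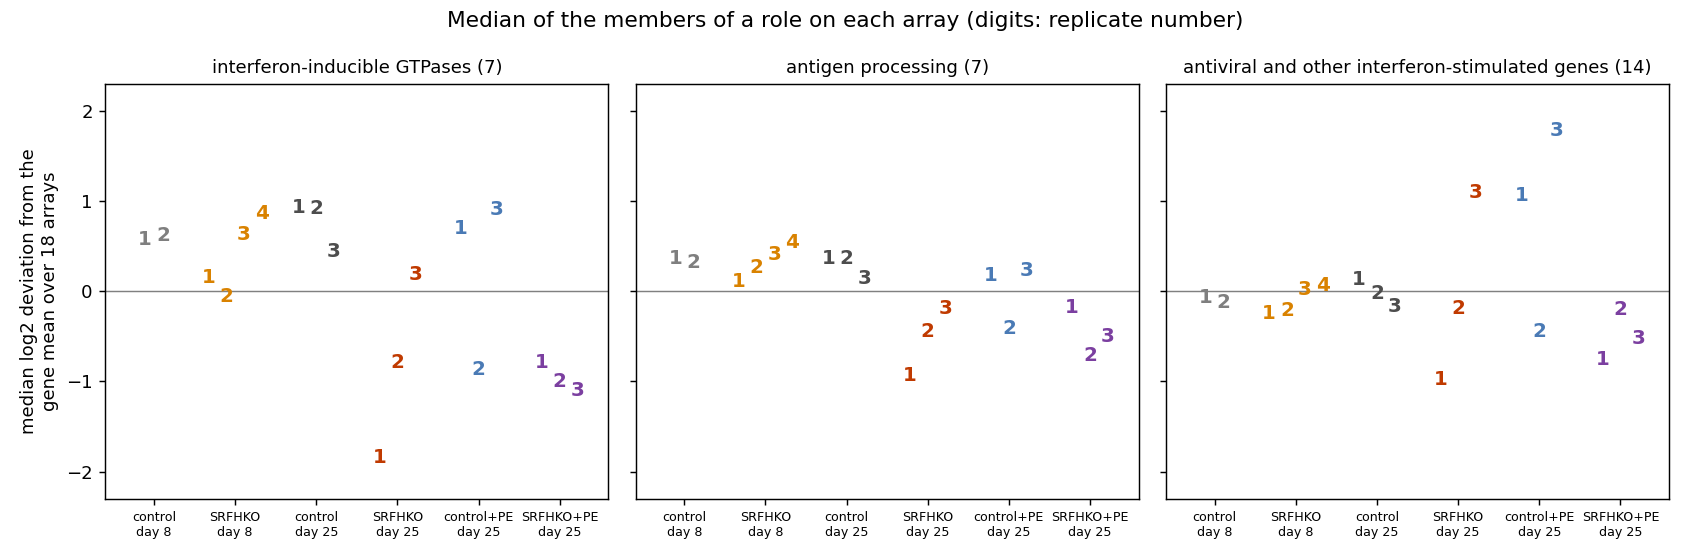
For each array, the median log2 deviation of the 7 GTPases, the 7 antigen processing genes and the 14 antiviral genes from their means over 18 arrays; digits are replicate numbers. The antiviral median ran from -0.98 to 1.09 among SRFHKO hearts at day 25 and from -0.45 to 1.78 among controls with PE, but from -0.17 to 0.13 among controls without PE.

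The roles differed in how SRFHKO replicate 3 stood to the controls. The median deviation of the antiviral genes was -0.98, -0.19 and 1.09 on SRFHKO replicates 1, 2 and 3 at day 25, and 0.13, -0.03 and -0.17 on the controls. For the GTPases it was -1.84, -0.79 and 0.18 on the mutants and 0.93, 0.92 and 0.44 on the controls. SRFHKO replicate 3 was therefore above every control for the antiviral genes and below every control for the GTPases. For antigen processing the medians were -0.93, -0.45 and -0.19 in mutants and 0.36, 0.37 and 0.14 in controls, and for MHC class I genes -1.44, -0.55 and -0.20 against 0.35, 0.64 and 0.01.

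Both chemokines, ligands of the receptor CXCR3 that attract T cells, differed below 0 and did not pass. Cxcl9 lay at 7.18, 6.93 and 6.14 in control and at 4.71, 4.97 and 5.77 in SRFHKO hearts, without overlap (-1.60 ± 0.45, limma adjusted p = 0.0661). Cxcl10, chosen after its values were seen, lay at 3.83, 4.80 and 4.17 against 3.10, 3.15 and 4.57, close to the filter limit of 3.58 (-0.66 ± 0.46).

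At day 25 with PE the same comparison of genotypes gave 0 of 39 genes past the threshold, where 1.66% of all genes tested passed and 0.943% were lower. The difference was below 0 for 37 of 39 with a median of -0.93, against -0.00 over all genes tested, and the smallest adjusted p was 0.0709, for Igtp. An unadjusted p under 0.05 was found for 27 of 39, all lower, against 14.7% of all genes tested (7.58% lower). Leaving out 1 array gave 7 of 39 (without control with PE replicate 3), 14 (without SRFHKO with PE replicate 3), 15, 20, 21 and 34 (without control with PE replicate 2), and the brightness covariate gave 6, all of them lower; the share of all genes in these 7 fits was 11% to 15.3%. The difference was below 0 for 36 to 38 of 39 in the same fits. The groups did not overlap, with SRFHKO lower, for 6 of 39 (10.5% of all genes tested). The comparison with PE uses other arrays than the one without PE. Medians by role at day 25 with PE were -1.29 for antiviral genes (-0.72 without control with PE replicate 3 and -1.92 without replicate 2), -1.18 for GTPases (-1.88 without control with PE replicate 2), -0.98 for transcription factors (-0.56 without control with PE replicate 3 and -1.53 without replicate 2), -0.39 for antigen processing and -0.35 for MHC class I.

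The 3 hearts of control with PE differed widely in antiviral genes. Ifit1 lay at 8.91, 6.32 and 11.72 in control with PE and at 5.63, 6.20 and 6.55 in SRFHKO with PE. Usp18 lay at 8.12, 6.04 and 10.37 against 6.11, 5.92 and 5.91, and Ifit3, also named after its values were seen, at 9.29, 7.19 and 11.24 against 6.64, 7.09 and 6.30. For all 3 genes control replicate 3 was high, replicate 1 intermediate and replicate 2 next to or within the range of the mutants, which lay close together. The differences were -2.86 ± 0.996 for Ifit1 (limma adjusted p = 0.164), -2.20 ± 0.79 for Usp18 (0.181) and -2.56 ± 0.74 for Ifit3 (0.0887). Replicate 3 of control with PE was the highest of all 18 arrays for 12 of the 14 antiviral genes, and replicate 2 was the lowest of its group for 13 of 14 antiviral genes, 7 of 7 GTPases and 37 of all 39 genes.

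Igtp, Irgm2 and Tap1 showed the same low replicate 2, and replicates 1 and 3 of control with PE were close to each other. Igtp lay at 10.30, 8.59 and 10.34 in control with PE and at 8.61, 8.05 and 8.22 in SRFHKO with PE, a difference of -1.45 ± 0.39. Irgm2 lay at 9.53, 7.96 and 9.56 against 7.75, 7.54 and 7.73 (-1.35 ± 0.48, limma adjusted p = 0.175). Tap1 lay at 7.79, 6.04 and 7.52 against 6.38, 6.05 and 5.84 (-1.02 ± 0.35, limma adjusted p = 0.155). Replicates 1 and 3 stood above every mutant with PE for these 3 genes. Without control with PE replicate 2, 16 of 39 genes passed, all lower and with a median over the 39 of -1.41, where 1.01% of all genes tested passed as lower: Igtp (-2.03 ± 0.33, limma adjusted p = 0.00511), Ifit3 (-3.59 ± 0.64, 0.0112), Irf9, Tap1, Oas1a, Oasl2, Irgm1, Ifit1 (-4.19 ± 0.89, 0.025), Ifi35, Usp18, Parp14, Rtp4, Stat2, Irf7, Rsad2 and Ifit2. Of these, Igtp and Tap1 also passed at day 25 without PE. Control with PE replicate 2 was the lowest of its group for 37 of 39 genes, so leaving it out had to move most differences further below 0. Leaving out any other array of either group gave 0 of 39. The step from 0 to 16 therefore rests on 1 heart and is not separate evidence.

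H2-K1, B2m, Irf1, Psme1 and Irf8, which passed without PE, had smaller differences with PE. H2-K1 lay at 11.53, 10.90 and 11.37 in control with PE and at 11.07, 10.74 and 10.77 in SRFHKO with PE (-0.41 ± 0.24, limma adjusted p = 0.449). B2m lay at 12.02, 11.64 and 12.19 against 11.82, 11.72 and 11.57 (-0.24 ± 0.22). Irf1 lay at 8.16, 7.73 and 7.90 against 7.47, 7.66 and 7.62, without overlap (-0.34 ± 0.16, limma adjusted p = 0.319). Psme1 lay at 10.51, 10.33 and 10.43 against 10.00, 9.88 and 9.99, also without overlap (-0.47 ± 0.15, limma adjusted p = 0.122). Irf8 lay at 5.98, 5.95 and 6.00 against 5.27, 5.75 and 5.20, again without overlap (-0.57 ± 0.20, limma adjusted p = 0.17).

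**Figure D4:**
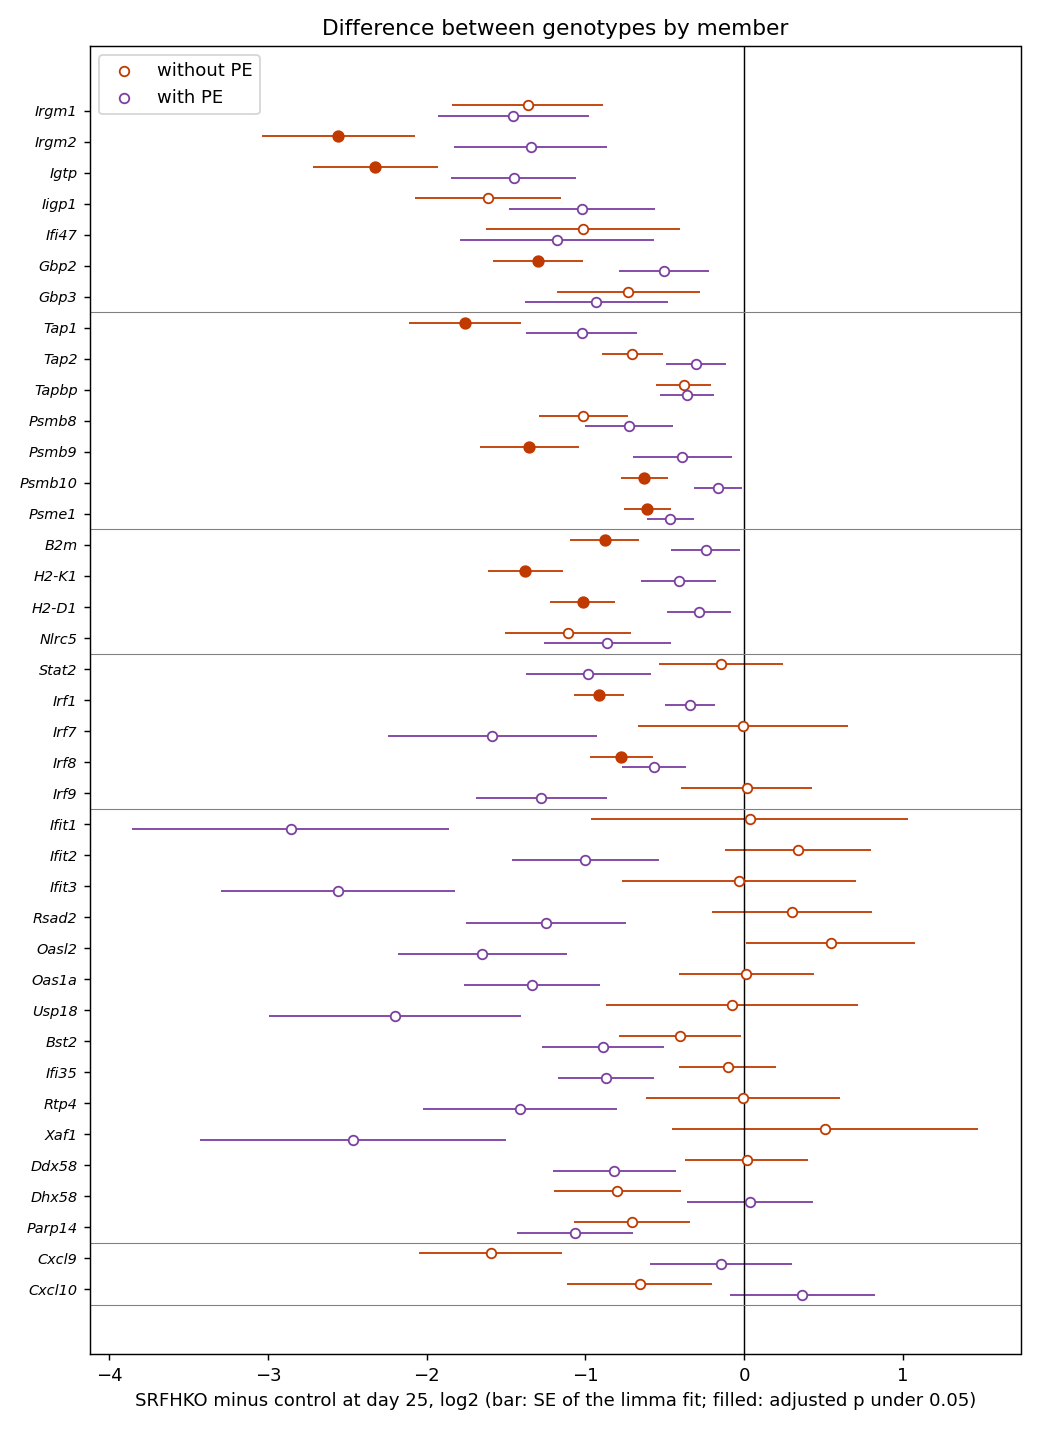
SRFHKO minus control at day 25 on the log2 scale for each of the 39 genes, without PE (orange) and with PE (purple); bars are standard errors of the limma fit, filled points passed the threshold, and lines separate the roles. Filled points are all in the comparison without PE, and antiviral genes lie around 0 without PE and mostly below it with PE.

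Whether the genotype difference itself changed with PE was tested by the interaction, and 0 of 39 genes passed (0.0238% of all genes tested). An unadjusted p under 0.05 was found for 12 of 39, 6 of them below 0, against 7.46% of all genes tested (3.09% below 0). The smallest adjusted p was 0.565. The interaction, the PE response of SRFHKO minus that of control hearts, was below 0 for 13 of 14 antiviral genes with a median of -1.38, and above 0 for all 7 antigen processing genes (median 0.40) and all 4 MHC class I genes (median 0.68). The antiviral median was -0.82 without control with PE replicate 3, -0.87 without replicate 3 of SRFHKO without PE and -2.09 without control with PE replicate 2, and the antigen processing median was 0.20 without control with PE replicate 2 or replicate 1 of SRFHKO without PE. The interaction was -2.19 ± 0.75 for Oasl2 and 0.97 ± 0.33 for H2-K1, each with a limma adjusted p of 0.565. The difference without PE for H2-K1 (-1.38) is therefore not shown to differ from that with PE (-0.41).

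PE alone was set against no PE within each genotype. In control hearts 0 of 39 passed (0.0396% of all genes tested), with a median PE minus no PE difference of -0.03. At an unadjusted p under 0.05 there were 5 of 39, against 10.5% of all genes tested. Antiviral genes were above 0 in 13 of 14 with a median of 0.75 and a largest difference of 1.82. Ifit2 had the smallest p among them (1.21 ± 0.46, limma adjusted p = 0.352). The 7 antigen processing and 4 MHC class I genes were all below 0, with medians of -0.32 and -0.36. These directions depended on single hearts. Without control with PE replicate 3, 8 of 14 antiviral genes were above 0 (median 0.05), and 30 of all 39 genes were below 0 where 21 had been. The 4 genes with an unadjusted p under 0.05 in that fit were all lower (9.1% of all genes tested had such a p). Without control with PE replicate 2 the antiviral median was 1.50, that of the 39 genes was 0.46, and 5 of 7 antigen processing and 3 of 4 MHC class I genes were below 0. All 14 genes with an unadjusted p under 0.05 in that fit were higher (10.8% of all genes tested had such a p). In SRFHKO hearts 0 of 39 passed (0.262%), with a median of -0.06 and 3 genes at an unadjusted p under 0.05 (10.9% of all genes tested). There 13 of 14 antiviral genes were below 0 (median -0.54), and Irf9, part of the type I complex, differed by -1.17 ± 0.41 (limma adjusted p = 0.262) without overlap. Without SRFHKO replicate 3 of day 25 without PE, 6 of 14 were below 0 (median 0.05), as were 9 of all 39 genes where 22 had been. The 7 genes with an unadjusted p under 0.05 in that fit were all higher (9.43% of all genes tested had such a p). Without SRFHKO replicate 1 of day 25 without PE the antiviral median was -1.13. Both comparisons share arrays with the genotype comparisons, so these values are not separate evidence.

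At day 8 no difference between genotypes was detected in these genes. Of the 39 genes 0 passed (0.0634% of all genes tested), 0 had an unadjusted p under 0.05 (9.03% of all genes), and the smallest adjusted p was 0.724. The median difference was -0.06, against -0.01 over all genes tested. Xaf1 had the widest difference (1.46 ± 1.02), with 1 control at 4.07 and every other array of day 8 at 7.30 or above. Igtp lay at 10.52 and 10.57 in control and at 9.79, 9.53, 10.56 and 10.78 in SRFHKO hearts (-0.38 ± 0.42). Irgm2 lay at 9.69 and 9.52 against 9.34, 8.85, 9.75 and 9.68, H2-K1 at 11.91 and 11.79 against 11.71, 11.78, 12.09 and 12.27, and Irf1 at 8.23 and 8.54 against 8.11, 8.26, 8.23 and 8.72. The mutants surrounded the controls for Igtp, Irgm2, H2-K1 and Irf1. Ifit1 lay at 7.57 and 7.24 against 7.25, 7.22, 7.57 and 7.57, so the spread of SRFHKO hearts at day 25 was not seen on these 6 arrays.

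The genotype difference at day 25 without PE less that at day 8 was below 0 for 30 of 39 genes, with a median of -0.74. Of the 39 genes 0 passed, as did 0 of all 12616 genes. At an unadjusted p under 0.05 there were 15 of 39, all below 0, against 11.3% of all genes tested (6.06% below 0). The smallest adjusted p was 0.123, for H2-K1 (-1.50 ± 0.34). With 2 control arrays at day 8, the differences at the 2 times are thus not shown to differ. Without SRFHKO replicate 2 of day 8, 1 gene passed, Psme1 (0.0159% of all genes tested).

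Other genes of the pathway were read from lists of the same kind. At day 25 without PE, 0 of 8 measured ligands and receptors passed, the nearest being Ifngr1, a receptor chain for interferon gamma (-0.40 ± 0.13, limma adjusted p = 0.0989). Of 11 signal transduction genes 1 passed, Irf5, a factor of myeloid cells and innate sensing, which rose by 1.27 ± 0.29 (limma adjusted p = 0.0292). Irf5 lay at 4.34, 3.49 and 3.94 in control and at 5.19, 4.97 and 5.40 in SRFHKO hearts, and all 15 other arrays, day 8 controls included, were above these 3 controls. Of 11 genes for nucleic acid sensing 0 passed, and of 47 other interferon-stimulated genes 1 passed, Cd274, the checkpoint ligand PD-L1. Cd274 lay at 6.70, 7.33 and 6.79 in control and at 4.88, 5.45 and 6.30 in SRFHKO hearts, a fall of 1.40 ± 0.35 (limma adjusted p = 0.037).

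MHC class II genes are expressed by professional antigen-presenting cells. All 7 measured differed below 0, with a median of -1.08, and 1 passed. H2-Aa, a class II alpha chain, lay at 10.87, 11.01 and 10.29 in control and at 9.19, 9.91 and 9.41 in SRFHKO hearts, a fall of 1.22 ± 0.27 (limma adjusted p = 0.0242). Of 7 other class I and peptide loading genes 0 passed, with a median of -0.15. With PE, 0 of the 47 other interferon-stimulated genes passed, with a median of -0.61.

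Some markers of cell types also differed between genotypes at day 25 without PE. The scaled signal summed over each list's genes with a probe set ran, for 8 of 8 endothelial markers, from 2208 to 2793 (control) and from 1896 to 2052 (SRFHKO), without overlap, and Cldn5 passed (-0.81 ± 0.19, limma adjusted p = 0.0309). For 9 of 9 cardiomyocyte markers it was 92942 to 102845 against 70363 to 84218, with falls of Myl3 (-0.73 ± 0.11) and Tnnc1 (-0.62 ± 0.09). Macrophage and monocyte markers (12 of 13 with a probe set) summed to 3569 to 4310 against 3027 to 4203, and 0 passed. Of the SRFHKO arrays, replicate 1 had the lowest macrophage sum (3027), then replicate 2 (3834) and replicate 3 (4203), the order in which the antiviral and GTPase medians also ran. In control with PE the macrophage sums were 3691, 4267 and 3770, highest on replicate 2, where these genes were low. Fibroblast markers (7 of 7) summed to 5291 to 8004 against 5119 to 7648 at day 25 without PE, overlapping, and 0 passed.

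For T cells 1 of 7 markers with a probe set was above the filter (Cd3e, Cd3d, Cd3g, Cd4, Cd8b1 and Cd2 were below it), with sums of 45.7 to 86.5 against 30.2 to 43.9. For NK cells 3 of 6 were above it, with sums of 58.1 to 128 against 35.2 to 74.9. For B and plasma cells 4 of 7 were above it, without Ms4a1, Cd79a and Cd79b. Their sums were 530.5 to 2225 against 128 to 766, and Igha, the immunoglobulin A constant region, passed (-3.65 ± 0.88, limma adjusted p = 0.0331). Lung markers summed to 61.3 to 116 against 30.5 to 43.5, with 3 of 5 above the filter and Napsa passing (-1.84 ± 0.38, limma adjusted p = 0.0178). Dendritic cell markers (3 of 5 above the filter, without Xcr1 and Siglech) summed to 80.9 to 104 against 69.8 to 103, and neutrophil markers (2 of 4 above it, without Cxcr2 and Camp) to 53.4 to 128 against 25.5 to 131, both overlapping and with 0 passing.

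With PE the markers differed between genotypes in other ways. Neutrophil sums were 237, 254 and 121 in control with PE and 57.5, 55.7 and 70.9 in SRFHKO with PE, without overlap, and the 2 genes above the filter had a median difference of -1.75 with 0 passing. The highest neutrophil sum was on control replicate 2, the array on which the interferon genes were lowest in that group. Cardiomyocyte sums were 82568 to 97578 against 69679 to 74118, without overlap, with falls of Myl3 (-0.81 ± 0.11, limma adjusted p = 0.001) and Tnnc1 (-0.73 ± 0.09, limma adjusted p = 0.000448). Macrophage sums (3691 to 4267 against 3292 to 3683) and T cell sums (51.3 to 56.4 against 32.4 to 50.5) did not overlap either, with 0 passing. Endothelial, fibroblast, NK, B and plasma, dendritic and lung sums overlapped.

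The ratio of the 3′ to the 5′ Gapdh control probe sets, a sign of RNA quality, ranged over 0.868 to 0.945 (control) and 0.820 to 0.835 (SRFHKO) at day 25 without PE, without overlap. It was also separate at day 8 (1.01 to 1.02 against 0.850 to 0.936) and overlapped at day 25 with PE. The same ratio for Actb overlapped at day 25 without PE (2.00 to 2.03 against 1.83 to 2.02). The part of these cell types, of RNA quality and of array brightness in the lower levels of the interferon and antigen presentation genes was not tested.

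Of the 39 genes, 15 had further probe sets above the filter, 25 in all. At day 25 without PE 20 of the 25 had the sign of the one described. The further B2m probe set differed by -0.98 ± 0.28 (limma adjusted p = 0.0707 over all probe sets), and Xaf1 had probe sets of opposite sign (0.51 for the one described and -1.01 for another).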

How the data were processed

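Intensities of 45101 probe sets on 18 Affymetrix arrays are on a linear scale as deposited by the authors. Per the submitters' processing notes they came from GCOS, the scanner software; the sources used here do not give the signal algorithm or the scaling. Per the labels' protocols RNA was extracted with Trizol and labelled cRNA was hybridised.

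Each array was scaled to a common 2% trimmed mean of 90.6, a pseudocount of 2 was added and log2 was taken, which understates folds of dim genes. The 64 control probe sets and probe sets below the 40th percentile of the mean (log2 3.58) were left out. Names came from the platform annotation (34945 probe sets with 1 symbol, 932 with several, 9160 with none), updated through gene IDs (34754 found) with RefSeq of GRCm38.p6. The probe set of highest mean per gene gave 12616 genes. limma 3.58.1 in R 4.3.3 fitted a mean per group over the 18 arrays, with an intensity trend, and 7 contrasts, with two-sided p-values adjusted by Benjamini-Hochberg. The step was tested on simulated data. With 3 arrays against 3, the smallest exact permutation p of 1 gene is 0.1, and the number of arrays limits the precision.

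The genes and lists were chosen with earlier results of these data known. Every listed gene could be named; values on each array were given for genes that passed in any contrast and the gene of highest mean in each role, and for Ifit1, Ifit3, Usp18, Xaf1 (in part), Nlrc5 and Cxcl10, chosen after their values were seen. Of the other lists, genes that passed, or the one with the smallest p, were named. Alternatives were 2 other scalings, 2 pseudocounts, 2 filters, another choice of probe set, the compared groups alone, no trend, a brightness covariate, a replicate block and leaving out each array.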

Additional observations from a re-analysis of the deposited data

Results flagged for a closer look

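At day 8, the 4 SRFHKO arrays of each of the 39 genes were screened for a sample far from the others, and 3 genes had one; chance gives about 1 in 20. Psme1, the proteasome activator subunit, lay at 10.05 on replicate 2 and between 10.69 and 10.72 on the other 3 arrays. Irf8 lay at 6.43 on replicate 4 and between 5.93 and 5.94 on the others. Cxcl10 lay at 5.09 on replicate 4 and between 4.02 and 4.17 on the others.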

How the results depend on the processing

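The 12 genes lower at day 25 without PE kept their direction in every fit run, as did the median of the 39 genes for both genotype comparisons of day 25; medians near 0, for day 8 and PE, did not (PE in control hearts: -0.03, and 0.46 without control with PE replicate 2). At day 25 without PE, 12 genes were lower in SRFHKO hearts. The count was 4 with the compared groups alone (0.412% of all genes tested passed), 6 without the intensity trend (1.28%) and 0 with the brightness covariate (0.325%, or 41 genes). It ran from 5 to 9 over the fits that leave out 1 array (0.515% to 3.27% of all genes tested). It lay between 8 and 13 under the other alternatives (1.46% to 6.82% of all genes tested). With PE, 0 passed. Leaving out 1 array gave 16 without control with PE replicate 2 (1.01% of all genes tested passed there as lower) and 0 in each other case. For the day by genotype difference, leaving out 1 array gave from 0 to 1. For day 8, for PE in either genotype and for the PE by genotype interaction, the count was 0 in every fit run. With the replicate number as a block, 13 genes were lower at day 25 without PE (the 12 and Cxcl9), and the other 6 counts were 0. Of all genes tested 2.71% passed at day 25 without PE in that fit. Same-numbered arrays of different groups had correlations of their deviations between -0.09 and 0.09 (median 0.02). Arrays of different groups and numbers had them between -0.10 and 0.09 (median -0.01). Before scaling, replicate 2 was the brightest and replicate 3 the dimmest array in every group of day 25. Whether the numbers pair the hearts is therefore not settled. Genes near the filter limit, such as Cxcl10 and Dhx58, are the least precise. The cause of these dependences was not tested.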
